A study of Mus musculus with 12 samples.

Results

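Regions of MyoD alone are places in the mouse genome where the MyoD list of binding sites has an entry and the lists of 4 other transduced proteins have none. They were found by pooling the 5 deposited lists of sites, merging entries that shared at least 1 base, and keeping merged regions made only of MyoD entries. This gave 13371 regions out of 60136, or 22.2% of all merged regions, and out of 24725 regions that held a MyoD site. Each of the 13371 was a single MyoD site, so region and site are the same thing here. The members were chosen by presence in the MyoD list and absence from the other 4, and both follow from the authors' site calls, so the MyoD values, widths and gaps below describe the class and carry no test.

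The lists come from chromatin immunoprecipitation with sequencing (ChIP-seq) in P19 cells, an embryonal carcinoma line from mouse. There were 6 groups with 2 libraries each. Cells carried MyoD, NeuroD2, the chimera MD(ND2bHLH), its mutant MD(ND2bHLH)WC, its mutant MD(ND2bHLH)WCS, or no transduced gene. The chimera is MyoD with the basic helix-loop-helix (bHLH) domain of NeuroD2 in place of its own, and the labels do not spell out the letters WC and WCS. The labels give all groups the same culture, infection with polybrene followed by a neuronal medium, so MyoD was mapped in embryonal cells under neuronal culture and not in muscle cells. MyoD and the 3 chimeric proteins were precipitated with antibodies 6196 and 6975, NeuroD2 with 1165 and 1240, and the untransduced cells with 1240 and 6975. Both libraries of a group point to 1 list, so there is no spread between replicates. Sites of untransduced cells were not analysed here. Read depth is unknown. Exact Clopper-Pearson 95% intervals are given for shares and cover counting error only, since neighbouring sites are not independent.

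MyoD is a transcription factor of the bHLH family that drives skeletal muscle differentiation, and it can switch on muscle genes when placed in many other cell types. NeuroD2 belongs to the same family and acts in neurons. Both dimerise through the helix-loop-helix with widely expressed E proteins and contact short DNA motifs called E-boxes through the basic region. The family shares this motif, and members differ in which central bases of the E-box they prefer and in which cofactors stand beside them. A region of MyoD alone is in the list of MyoD and neither in that of its native relative nor in those of the 3 MyoD proteins that carry the relative's bHLH domain.

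More than any other list, the MyoD list consisted of sites of its own. Of its 24935 sites 53.6% (53.0 to 54.2%) overlapped no other list. The same share was 33.1% for NeuroD2 (32.6 to 33.6%) and 13.7% for the chimera (13.2 to 14.3%). The mutant WCS had 8.14% (7.79 to 8.51%) and WC had 14.0% (13.6 to 14.5%). The lists differ in length, and that of NeuroD2 is the longest, at 31458 sites. MyoD is the only protein here without the NeuroD2 bHLH domain. Every other list was thus compared with lists of proteins that share its bHLH domain, and the MyoD list was not. The part this plays in the order was not tested. WC and WCS are 2 mutants of 1 protein, and each lowers the count of the other: 22.1% of WC sites were in no other list once WCS was left out, and 17.9% of WCS sites once WC was left out. With all lists shortened by value to 14375 sites the share was 48.7% for MyoD, 28.1% for NeuroD2, 25.9% for the chimera, 12.3% for WCS and 10.6% for WC. The MyoD and chimera lists hold 0 sites on chromosome X, whereas NeuroD2 has 570, WC 403 and WCS 362. On autosomes only, 32.7% of NeuroD2 sites, 13.97% of WC sites and 8.05% of WCS sites were in no other list. These shares of the other lists under other settings were added after seeing the data, and MyoD had the highest share in each of the settings run for all 5 lists.

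The MyoD-alone sites were mostly of low value. The deposited value, taken from its range to be −log10 of a p-value, serves only to rank sites within a list. The median was 8.79 for the 13371 MyoD-alone sites, 10.7 for all MyoD sites and 14.9 for the 11564 MyoD sites held by at least 1 other list. Among the latter it was 13.4 in regions of 2 lists, 13.8 in regions of 3, 12.5 in regions of 4 and 20.2 in regions of all 5 lists. In the MyoD-alone class the values ran from 5.00 to 219, with a lower quartile of 6.53 and an upper quartile of 14.0. Of its sites 7831, or 58.6%, lay under 10, against 46.6% of all MyoD sites and 32.8% of the MyoD sites held by another list. None of the 11 MyoD sites with an infinite value was MyoD alone, and 38 MyoD-alone sites exceeded 100, against 415 of those held by another list. The class nevertheless covered 4.91 Mb of the 9.94 Mb in the MyoD list.

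**Figure D1:**
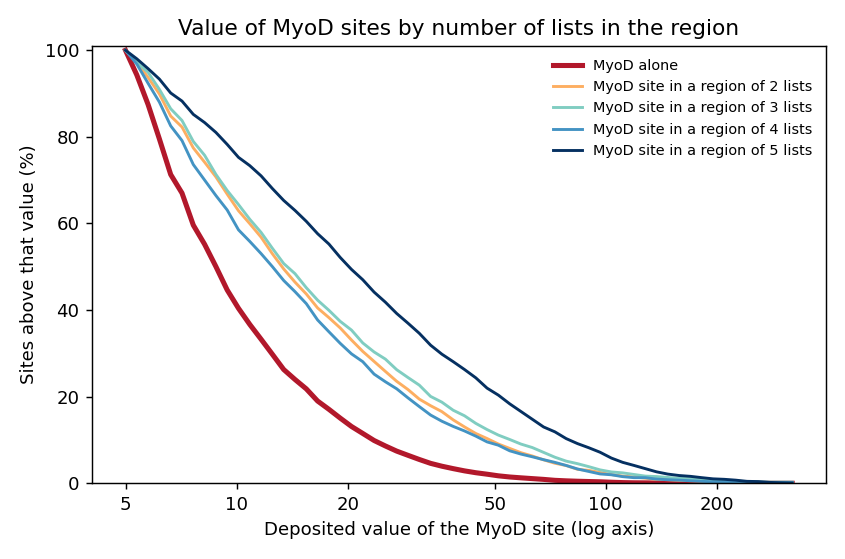
Share of MyoD sites (vertical axis, %) whose deposited value exceeds that on the horizontal log axis, for MyoD-alone sites and for MyoD sites in regions of 2, 3, 4 and 5 lists. The curve of the 13371 MyoD-alone sites, with a median of 8.79, falls first, and that of the sites in all 5 lists, with a median of 20.2, falls last.

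The share of MyoD sites that stood alone fell with the value, and a part remained at the top. The MyoD list was divided by value into 10 equal bins, numbered upward. In bin 1 72.2% of sites were MyoD alone (70.4 to 73.96%), in bin 5 61.2% (59.2 to 63.1%), in bin 8 45.3% (43.4 to 47.3%), in bin 9 33.9% (32.02 to 35.8%) and in bin 10 16.3% (14.9 to 17.8%). The share in bin 10 stands for 407 sites with values of 40.4 or more. Lists of other proteins showed the same fall and ended lower, each divided by its own values: 5.28% of bin 10 of NeuroD2 was in no other list, 1.25% of the chimera's, 0.185% of WC's and 0 of 2246 sites of WCS's, which allows up to 0.164% by the same interval. Low-value places therefore made up most of the class, as they did in the other 4 lists. The share alone in bin 10 was highest in the MyoD list. MyoD is also the only protein here without the NeuroD2 bHLH domain. The parts of that domain, of the antibodies, of unrecorded filters and of read depth in this share were not tested. Sites of infinite value differed: 29 of 34 in the NeuroD2 list were in no other list. This held for 0 of 11 in the MyoD list, 0 of 8 in WC's and 0 of 6 in WCS's.

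**Figure D2:**
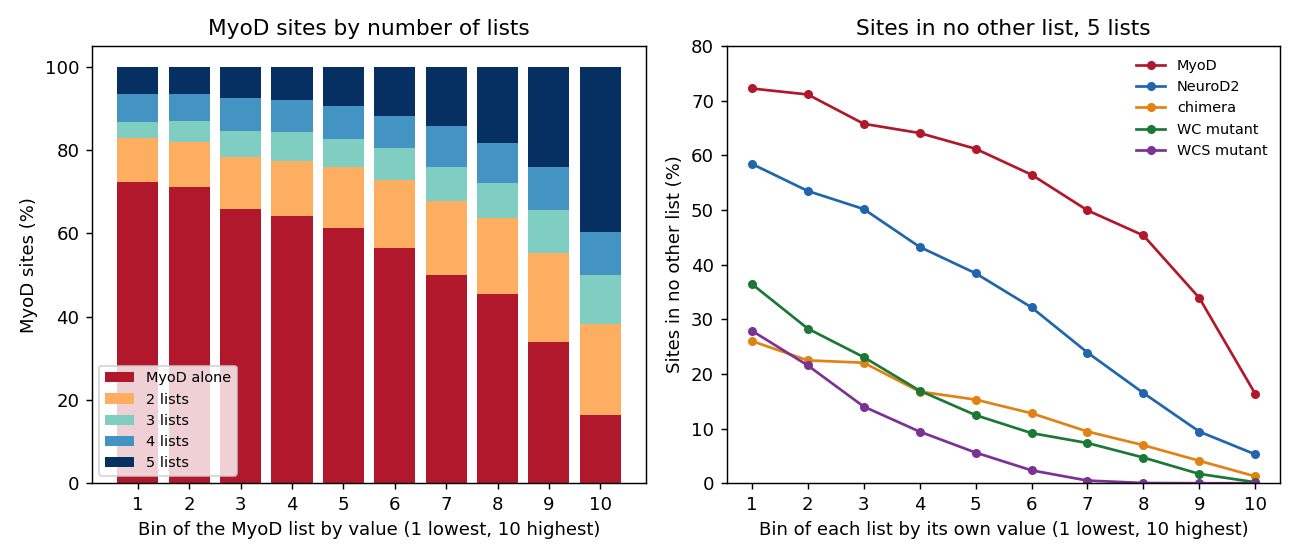
Left, bars of the share of MyoD sites (%) by number of lists in the region, for each of 10 equal bins of the MyoD list by value. Right, lines with points of the share of each list's sites (%) that are in no other list, for each of 10 bins of that list by its own value; MyoD falls from 72.2% to 16.3% and stays above the other 4 lists in every bin.

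Among the leading MyoD sites the class was less frequent than in the whole MyoD list, of which it made up 53.6%. Only 3 of the 100 MyoD sites of highest value were MyoD alone, 44 of the leading 500, 108 of the leading 1000 and 1258 of the leading 5000. The first stood at rank 59 of the list and number 10 at rank 192. The other lists showed the same fall toward high values in the bins above, so it was not particular to the MyoD list.

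The 10 MyoD-alone sites of highest value lay on 9 chromosomes, and 6 of them had no entry of another list within 10 kb. Coordinates are 1-based in mm9. The leading site, on chromosome 10 from 80376780 to 80377672, had a value of 219 and a width of 893 bp. It had a further MyoD site 152 bases away, and the nearest NeuroD2 site lay 2227 bases away, the nearest WC site 4333 and the nearest chimera site 15332. The second, on chromosome 1 from 181168736 to 181169203, had a value of 183 and lay 1757 bases from a NeuroD2 site and 6025 bases from a chimera site. The third, on chromosome 14 from 58770916 to 58771345, had a value of 181, and the closest entry of any other list, a NeuroD2 site, was 72801 bases off.

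The next leading sites show the same contrast between near and remote surroundings. The site on chromosome 2 from 167365565 to 167366074 had a value of 179 and a second MyoD site 1478 bases away, while a chimera site 12154 bases away was the closest of the other lists. The site on chromosome 7 from 50685464 to 50686157 had a value of 159, with NeuroD2 at 13663 bases and no chimera site within 116398 bases. On chromosome 6 from 120741702 to 120742165 the value was 155, and WCS at 5657 bases and NeuroD2 at 5695 bases were nearest. Of these, the site on chromosome 7 stood apart within the MyoD list too, since its nearest MyoD neighbour was 74517 bases away.

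The remaining 4 of the 10 had values between 137 and 153. The site on chromosome 1 from 79313759 to 79314174, with 153, had its nearest chimera site 281191 bases away and its nearest entry of any other list 83321 bases away. The site on chromosome 8 from 113232294 to 113232873, with 147, lay 11364 bases from a NeuroD2 site. On chromosome 17 from 79764013 to 79764420, with 142, all 4 other lists had a site between 8526 and 8601 bases away, at one shared place that also held a further MyoD site, 8499 bases away. The site on chromosome 16 from 87553517 to 87553997, with 137, had no other list within 74315 bases. The gaps of the 10 leading sites to the nearest entry of another list thus ran from 1757 to 83321 bases.

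At the lower end 26 MyoD-alone sites shared the lowest value of the list, 5.00, out of 34 MyoD sites at that value. The 5 widest of them, an order chosen after the tie was seen, lay on chromosomes 15, 15, 4, 11 and 2. They were 431 to 544 bp wide, and their gaps to the nearest other list ran from 801 to 5113 bases. The widest, on chromosome 15 from 98886061 to 98886604, lay 1293 bases from a NeuroD2 site, with WC at 1316 and WCS at 1350 bases.

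MyoD-alone sites were narrower than other MyoD sites at the same rank of value. Their median width was 337 bp (125 to 1797 bp), against 384 bp for MyoD sites held by another list (175 to 1947 bp). Width rose with value, so both were compared within the 10 bins. In bin 1 the medians were 269 and 282 bp, in bin 5 335 and 346 bp, and in bin 10 436 and 487 bp, with the MyoD-alone median the lower in all 10 bins. A narrower site has fewer bases that another list can overlap, so the rule itself bears on this difference, and the part it plays was not tested.

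Few MyoD-alone regions lay at the boundary of the rule. Of the 13371, 88 lay within 50 bases of a site of another list, 203 within 100 bases and 952, or 7.12% (6.69 to 7.57%), within 500 bases. Within 1 kb there were 1610, or 12.04% (11.5 to 12.6%). This share was 20.3% where a shared site was defined by centres within 100 bases, 4.91% with sites within 500 bases joined first, and 6.99% with every list cut to its 50% of highest value. For the 18008 sites that were alone in 1 of the other 4 lists the same share was 14.3%. Within 10 kb there were 50.8% (49.98 to 51.7%), and 516 regions, or 3.86%, had no entry of any other list within 100 kb. The median gap was 9685 bases. On the other side of the rule, only 10 of the 11564 MyoD sites held by another list overlapped it by 10 bases or fewer and 88 by 100 bases or fewer, and in 98.9% the overlap covered at least 50% of the shorter site.

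Closest to the boundary, the 14 MyoD-alone sites with a gap of up to 10 bases had a median value of 14.6, and the 10 sites just outside it, with an overlap of up to 10 bases, had 14.9. Up to 50 bases the medians were 8.22 for 88 sites inside and 9.90 for 48 outside, and up to 100 bases 8.62 for 203 and 8.60 for 88. Just inside, a site on chromosome 10 from 38826217 to 38826637 (value 29.0) had 1 free base between it and a WCS site, and one on chromosome 9 from 40266543 to 40266940 (value 19.3) had 1 free base before a NeuroD2 site. A site on chromosome 10 from 31313056 to 31313415 (value 7.23) had 2 free bases before a chimera site. Just outside, a MyoD site on chromosome 15 from 99771456 to 99771782 (value 10.1) shared 1 base with a WCS site. Sites on chromosome 15 from 25552824 to 25553190 (value 14.3) and on chromosome 9 from 31087527 to 31087834 (value 6.28) shared at most 2 bases with any other list, a chimera site in both cases. Values on both sides overlapped.

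The share of regions within 1 kb of another list was similar from low to high MyoD value. Here the MyoD-alone sites were ranked by value and cut into 5 bins. In the lowest 12.8% lay within 1 kb of another list (11.6 to 14.1%) and in the highest 11.5% (10.3 to 12.8%), with 11.5 to 12.3% in the 3 between. The median gap was 10044 bases in the lowest bin and 9809 in the highest. The intervals of the lowest and highest bins overlapped.

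Which list came closest depended on the length of the lists. With full lists 7.25% of MyoD-alone regions had a NeuroD2 site within 1 kb (6.81 to 7.70%), 6.63% a WC site (6.22 to 7.07%), 5.95% a chimera site (5.56 to 6.37%) and 5.83% a WCS site (5.44 to 6.24%). With each list shortened by value to 14375 sites, the length of the chimera list, the chimera remained at 5.95% and the others were 3.90% for WCS (3.58 to 4.25%), 3.64% for WC (3.33 to 3.97%) and 3.46% for NeuroD2 (3.15 to 3.78%). The median gap to a site was then 28726 bases for the chimera, against 38089 for NeuroD2, 35665 for WC and 35269 for WCS. At equal length the chimera list thus had the most entries beside MyoD-alone regions. All 3 chimeric proteins were precipitated with the antibodies of MyoD, and only the chimera list shares with the MyoD list the absence of chromosome X. Shortening keeps the low-value sites of the chimera list and drops those of the other lists, so the value of the sites kept and the protein cannot be told apart. Chimera sites were also the widest, with a median of 431 bp against 329 to 349 bp in the NeuroD2, WC and WCS lists, and the filters behind each list are not recorded. The part of width and of filters in the chimera's closeness was not tested.

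**Figure D3:**
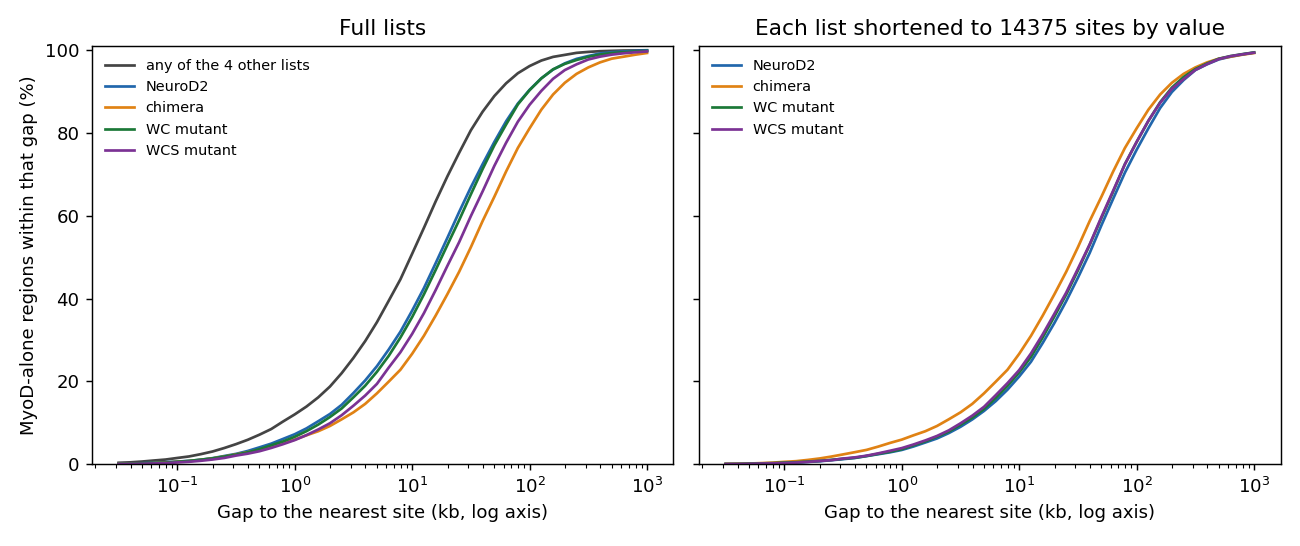
Cumulative share of the 13371 MyoD-alone regions (%) against the gap to the nearest site of another list (kb, log axis), with full lists on the left and with each list shortened to 14375 sites on the right. The NeuroD2 and WC curves lead among single lists on the left, and the chimera curve leads on the right, with 5.95% within 1 kb.

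Among single lists, the chimera's also took the most MyoD sites out of the class. Regions held by MyoD and 1 further list numbered 2643 for the chimera, 594 for NeuroD2, 402 for WC and 264 for WCS. Set against the number of sites in each list, this was 18.4% for the chimera, 1.89% for NeuroD2, 1.49% for WC and 1.18% for WCS. The regions of MyoD and the chimera only had a median MyoD value of 16.2, against 9.42 for NeuroD2, 10.4 for WC and 9.29 for WCS. The part of site width and of filters in this count was not tested either. The last 3 medians lie closer to the 8.79 of the MyoD-alone class than to the 14.9 of all MyoD sites held by another list. Regions held by MyoD and several lists are in none of these counts, so lists that share sites hide one another. The class had 13782 regions without WC, 13640 without WCS and 14374 without both. Without the chimera list it had 16130, and without NeuroD2 13988.

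The surroundings of MyoD-alone sites held on average fewer entries of the other lists than those of MyoD sites held by another list, although the medians were mostly equal. The absence or presence of those same lists defines the 2 classes, so the rule itself bears on this difference. The part it plays was not tested. Entries with their centre within 50 kb were counted, leaving out those of the site's own region. MyoD-alone sites had a mean of 2.604 NeuroD2 sites around them, against 3.35 around the others. For the chimera the means were 1.505 and 1.86, for WC 2.32 and 2.98, and for WCS 1.97 and 2.57. Further MyoD sites differed less, with means of 2.83 and 3.12. The medians were 2 and 2 for NeuroD2, WC and MyoD, 1 and 1 for the chimera, and 1 and 2 for WCS. The counts were skewed, with up to 58 NeuroD2 sites around a MyoD-alone site and up to 82 around another MyoD site. The order of the means was the same in each of 5 bins of the MyoD list by value, for all 5 lists. In the highest bin, for example, NeuroD2 had 2.71 around 1252 MyoD-alone sites and 3.27 around 3735 others. No site of the other 4 lists had its centre within 50 kb of 1503 MyoD-alone sites, or 11.2%.

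**Figure D4:**
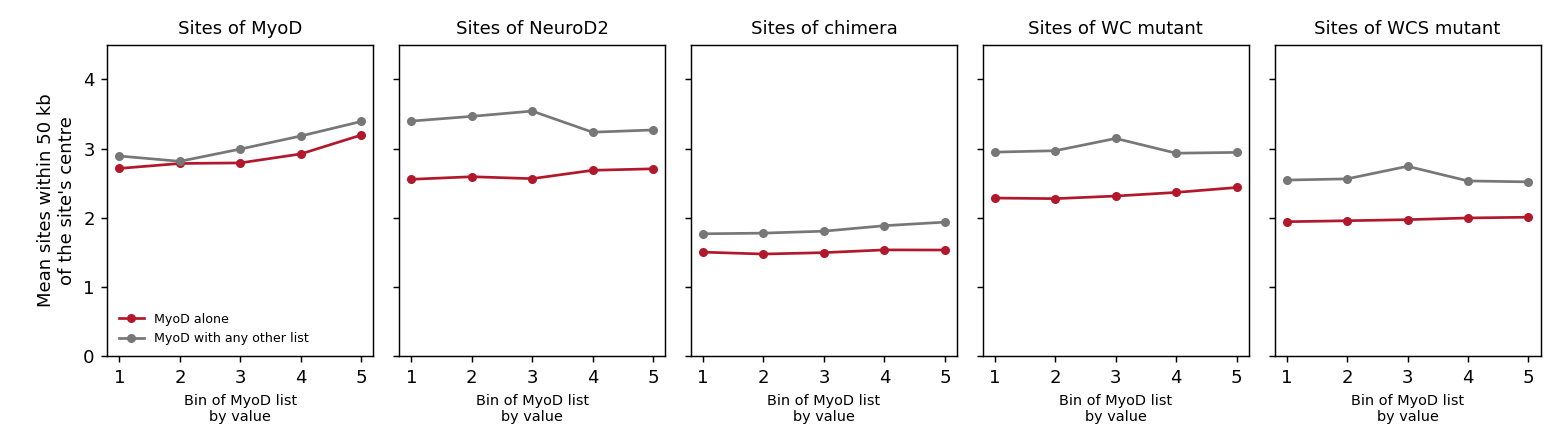
Mean number of sites of each list (vertical axis; 1 panel per list) with a centre within 50 kb of a MyoD site, leaving out its own region, for MyoD-alone sites and for MyoD sites held by another list, by bin of the MyoD list by value (1 lowest, 5 highest). The MyoD-alone points lie lower in all panels, with overall means of 2.604 and 3.35 for NeuroD2 and 2.83 and 3.12 for MyoD.

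Along the chromosomes, MyoD-alone sites lay among the rest of the MyoD list. Of the 13371, 45.2% had a further MyoD site within 10 kb (44.3 to 46.04%), against 47.7% of all MyoD sites and 50.6% of those held by another list (49.7 to 51.5%). Another MyoD-alone site lay within 10 kb of 29.9% (29.1 to 30.6%), and a MyoD site held by another list within 10 kb of 25.7% (24.97 to 26.5%). Sites of both kinds therefore stood side by side.

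All 19 autosomes held MyoD-alone sites, at shares of 50.6 to 58.7% of their MyoD sites. The intervals of the lowest and highest autosome, picked from 19, did not overlap. The share of MyoD sites that were MyoD alone was lowest on chromosome 11, at 50.6% (48.3 to 52.8%, with 979 such sites), and highest on chromosome 14, at 58.7% (55.1 to 62.2%, with 447 such sites), against 53.6% in all. Their density per Mb of the span covered by the lists was lowest on chromosome 14, at 3.68, and highest on chromosome 11, at 8.24. All MyoD sites had densities of 6.28 and 16.3 there. Share and density did not run opposite throughout, since chromosome 19 had a share of 55.9% and a density of 7.45. The median value of MyoD-alone sites varied little between autosomes, from 8.60 to 9.11.

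**Figure D5:**
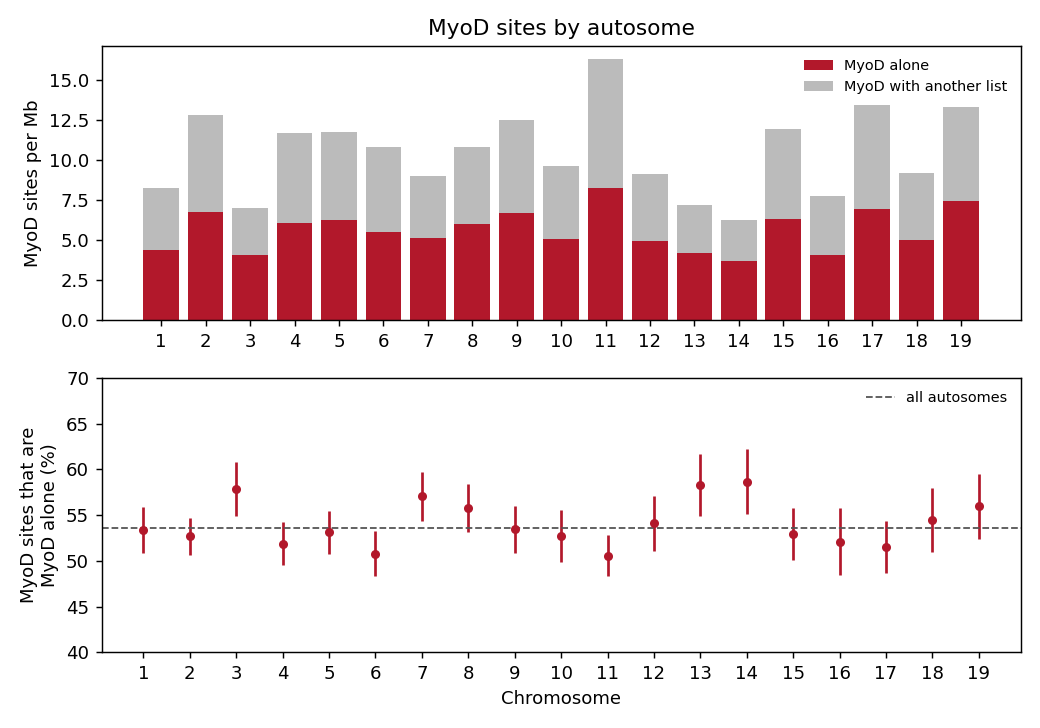
Above, bars of MyoD sites per Mb on each autosome, divided into MyoD-alone sites and MyoD sites held by another list. Below, the share of MyoD sites that are MyoD alone (%), with exact 95% intervals for counting error and a dashed line at the share over all autosomes; the axis runs from 40 to 70%. Chromosome 11 has the highest density, 8.24 MyoD-alone sites per Mb, and the lowest share, 50.6%.

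Some stretches carried many MyoD-alone sites. In windows of 100 kb, 7725 held at least 1, of which 4510 held 1, 2952 held 2 to 4 and 263 held 5 or more. The window with the most started at 13100001 on chromosome 8. It had 12 MyoD sites, all MyoD alone, beside 2 NeuroD2 sites, 1 WCS site and 0 of the chimera and of WC. The window from 120100001 on chromosome 11 had 10 MyoD-alone among 15 MyoD sites, beside 9 NeuroD2 sites. The window from 60800001 on chromosome 11 had 9 among 14, and that from 28300001 on chromosome 7 had 9 among 12. A further 9 windows held 8, and the 4 of them with most MyoD sites, a tie order chosen after the counts were seen, started at 87900001 on chromosome 3, 119400001 on chromosome 11, 106600001 on chromosome 4 and 21200001 on chromosome 16. The window on chromosome 4 also held 15 NeuroD2 sites, so a high count of MyoD-alone sites occurred both where the other lists were nearly empty and where they were full.

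Of the 7725 windows with at least 1 MyoD-alone site, 1212 had no entry of the other 4 lists. These held 1537 MyoD-alone sites. Such windows were not counted for the other lists. The fullest, from 44600001 on chromosome 9, had 7, and the next, from 97400001 on chromosome 7, had 5.

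Runs of neighbouring merged regions that were all MyoD alone, a count added after the values were seen, describe these stretches in another way. The 13371 regions formed 9422 runs, of which 6748 were a single region, 1844 had 2 regions and 830 had 3 or more. The runs of 3 or more held 2935 regions, or 22.0% of the class. MyoD-alone regions made up 22.2% of all merged regions, so some of them are neighbours in any case. Runs were not counted for the other lists, and whether these exceed ordinary adjacency was not tested. The longest run had 11 regions over 70.4 kb on chromosome 8, from 97865478 to 97935854. By construction no entry of the other lists lies between them. A pair of runs followed with 9 regions each. One spanned 79.99 kb on chromosome 8, from 13120959 to 13200950, at the place of the fullest window, and the other 402 kb on chromosome 10, from 41970918 to 42373125. Of the runs of 8, the shortest, over 43.4 kb on chromosome 8, from 113227601 to 113270988, contained the leading site with a value of 147 described above.

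The most isolated MyoD-alone regions, also picked after their values were seen, had values under the class median of 8.79, some only slightly. The region on chromosome 1 from 113649460 to 113649753 (value 6.94) was 2024 kb from the nearest entry of another list. Those on chromosome 15 from 49960744 to 49960977 (value 8.29) and chromosome 17 from 60408339 to 60408613 (value 8.76) were 1528 and 1115 kb away. Over all 516 regions with a gap above 100 kb the median value was 7.94 and the median width 301 bp, against 8.79 and 333 bp for gaps of 10 to 100 kb. The highest value among the 516 was 113. How uniquely reads map in any of these places was not tested.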

How the data were processed

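Sites were used as deposited. The submitters' processing notes name BWA 0.7.5, CASAVA 1.8.2 and the build mm9. The peak caller, its background, any filters and how the 2 libraries of a group were combined are not stated there. The authors' deposited value of each site was taken to be −log10 of a p-value, since all exceed 5 and the largest are written as infinite, and no header names the unit. Entries of the 5 lists sharing at least 1 base were merged. Gaps are the bases between entries, and windows count centres. No test was run, because each group has 1 list; exact Clopper-Pearson intervals cover counting error only. The members, lists and measures were chosen with earlier results of these data known.

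The text names the 10 MyoD-alone sites of highest value and the 5 of lowest, the 5 windows of 100 kb with the most (ties up to 8), the autosomes with the highest and lowest share, and the 3 sites nearest each side of the rule. Motifs, sequences and gene loci were not analysed here: they need an mm9 genome or annotation, and the gene table at hand belongs to another build. Class assignment, gaps and overlaps were tested on simulated data. The scripts ran under Python 3.11.15 with pandas 2.3.3, numpy 2.4.6, matplotlib 3.10.9 and scipy 1.17.1.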

Additional observations from a re-analysis of the deposited data

How the results depend on the processing

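The class was recomputed under 10 alternatives listed in advance and 3 chosen after seeing the data. The number of MyoD-alone regions, 13371, stayed within 1.5 times in 10 of them, at 12050 to 16130. It was 7121 with each list cut to its 50% of highest value, 7005 with all lists shortened to 14375 and 5037 with only the MyoD list cut to its 50% of highest value (chosen after seeing the data). Fewer MyoD sites enter in these 3. The share of MyoD sites that were alone, 53.6%, was 59.2% where centres had to lie within 100 bases, 49.6% with sites within 500 bases joined, 57.1% with the highest 50% of each list and 48.7% with lists shortened to the shortest. It was 56.1% without the NeuroD2 list, 64.7% without the chimera's, 55.3% without WC's and 54.7% without WCS's. Of the alternatives chosen later, it was 59.9% with only the other 4 lists shortened, 40.4% with only the MyoD list cut and 57.6% without WC and WCS. The median value, 8.79, was 9.01 by centres, 17.5 with the highest 50%, 14.8 with shortened lists, 9.42 without the chimera list and 16.9 with only the MyoD list cut. The share within 1 kb of another list, 12.04%, was 12.8% with an overlap of at least 50% of the shorter site, 20.3% by centres, 4.91% with sites joined, 6.99% with the highest 50% and 8.51% with shortened lists. It was 10.4% without the NeuroD2 list, 10.3% without the chimera's, 11.3% without WC's, 8.88% with only the other 4 lists shortened and 10.4% without WC and WCS. Joining removes the nearest pairs by its construction, and other causes were not tested. Read depth is unknown, so a site absent from a list may lie under that list's threshold. No paired analysis was possible because each group has 1 list.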
